A study of Mus musculus with 89 samples.

Results

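The 8 genes described here are C1qa, C1qb and C1qc, which encode the chains of complement C1q, and Cd68, Csf1r, Mrc1, Adgre1 and Lyz2, which are widely used to recognise macrophages. They were taken by name, all 8 were on the panel of 19962 targets, and all 8 were among the 5087 targets that passed the filter on low values. The genes were read in 89 segments that the labels call neutrophil, captured on frozen sections of mouse squamous cell carcinoma with a spatial profiler, in which oligonucleotide tags bound to RNA are released from a chosen region by ultraviolet light and counted. The series asks how neutrophils in different parts of these tumours respond to immunotherapy, so the counts below are of macrophage-type RNA read together with regions chosen for neutrophils.

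The annotation places tissue taken before treatment on the naive slide, with 15 segments in the stroma, 13 at the interface with the tumour and 14 within the tumour. The acute slide held tissue after treatment, with 9 stroma and 2 interface segments. The relapse slide, also after treatment, held 14 stroma and 22 interface segments. The labels describe the tumours as arising spontaneously. The agent given as immunotherapy, its times, and the strain, genotype, age and number of the animals are not given in the sources used here. A stage had a slide of its own, and differences between stages cannot be told apart from differences between slides. The relapse slide is also named for treatment, and the scans of the naive slide and the relapse slide carry the names of different tumour models. What these names mean was not settled here.

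C1q is the recognition molecule of the classical complement pathway. It is assembled from A, B and C chains, circulates bound to the proteases C1r and C1s, and binds antibody on surfaces as well as dying cells. Unlike most complement proteins, which come largely from the liver, C1q is made chiefly by tissue macrophages and related cells, and its chains are commonly found together in macrophages of tumours. Csf1r is the receptor for the growth factors Csf1 and Il34 that maintain macrophages. Cd68 is a glycoprotein of the lysosomal membrane, Mrc1 is the mannose receptor CD206, Adgre1 is the F4/80 antigen and Lyz2 is lysozyme, which neutrophils also make.

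C1qa, C1qb and C1qc lie together on mouse chromosome 4 over 18.7 kb, with 0 other RefSeq genes between them (GRCm38.p6). Because the C1q genes are neighbours and encode chains of one protein, the start regions of C1qb and C1qc are shown. They run from 250 bases before to 50 bases after the annotated start, at chr4:136886151-136886450 and chr4:136892865-136893164, both on the minus strand, and are credited to RefSeq. The capitals mark AGGAAG or its reverse complement CTTCCT, a purine-rich sequence of the kind bound by PU.1 and other ETS-family factors of myeloid cells.
C1qb: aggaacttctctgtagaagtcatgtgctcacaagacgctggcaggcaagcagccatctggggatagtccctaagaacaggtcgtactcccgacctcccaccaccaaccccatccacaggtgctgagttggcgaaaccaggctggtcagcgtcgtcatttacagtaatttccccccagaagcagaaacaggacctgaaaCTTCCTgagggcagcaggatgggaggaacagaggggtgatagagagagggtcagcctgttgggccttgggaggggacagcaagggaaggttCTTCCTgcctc
C1qc: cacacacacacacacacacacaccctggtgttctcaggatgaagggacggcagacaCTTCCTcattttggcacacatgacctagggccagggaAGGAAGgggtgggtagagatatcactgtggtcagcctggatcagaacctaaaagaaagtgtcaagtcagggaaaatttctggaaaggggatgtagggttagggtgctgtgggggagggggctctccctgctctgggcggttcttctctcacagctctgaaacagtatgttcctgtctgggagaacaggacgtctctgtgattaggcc
Each of these windows held 2 matches, at bases -52 and 39 of C1qb and at bases -194 and -157 of C1qc, counted from the start to the first base of the match. Of the 5 genes with an entry in the promoter table, Mrc1 had 3 matches, Lyz2 had 2 and Cd68 had 0. At least 1 match was found in 35.4% of 32851 promoters of the same length, and 2 or more in 8.62%. A match of these letters is a description of the sequence and no evidence of binding.

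The deposited values are tag counts divided by a factor for each segment, and the counts were recovered by multiplying back. The smallest recovered count is 1, which is the floor, and a count of 1 was read here as no signal above the floor. Depth is what a segment's counts above the floor add up to, and a share is a gene's counts above the floor per 10000 of that depth. Depth ranged from 574 to 208675 counts with a median of 7216, and class medians ran from 3571 in relapse interface to 64652 in acute stroma. At the median depth of relapse interface 1 count corresponds to a share of 2.80, and at that of acute stroma to 0.155. Intervals and limits given for shares cover counting error only.

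The neutrophil label of the segments was checked against 15 neutrophil markers. Only S100a8, quantifiable (above a limit set by the negative probes) in 44 of 89 segments, and S100a9, quantifiable in 38, passed the filter on low values. Ly6g was above that limit in 6 segments, Csf3r in 4 and Ltf in 0. This limit of quantitation is the geometric mean of a segment's negative probes times the square of their geometric SD, and no less than 2 counts. The summed share of the 15 markers had a median of 7.46 and a range of 0 to 53.8. Their mean counts above the floor were 1.07 times the mean of all panel targets over 89 segments. By class this ratio ran from 0.896 at the naive interface to 1.97 at the acute interface. For the 8 genes described here it was 2.67 over 89 segments, and by class it ran from 0.932 within the naive tumour to 5.02 in naive stroma. Within the naive tumour it was below the 1.07 of the neutrophil markers. So it was at the relapse interface, with 1.06 against 1.35, and in the other classes it was above.

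The plot of recovered counts shows each gene in every segment. C1qa had counts of 1 to 52 with a median of 5 in naive stroma, where 9 of 15 segments were above the limit of quantitation. At the naive interface it ranged from 1 to 11 with a median of 1, and 2 of 13 segments were above the limit. Within the naive tumour it ranged from 1 to 5 with a median of 1, and 2 of 14 were above. The naive classes overlapped, and the 6 highest naive counts were in stroma. On the acute slide C1qa ranged from 1 to 33 with a median of 4 in stroma, and was 9 and 18 in the interface segments. On the relapse slide it ranged from 1 to 9 in stroma and from 1 to 3 at the interface, with a median of 1 in both, so most relapse segments were at the floor.

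**Figure D1:**
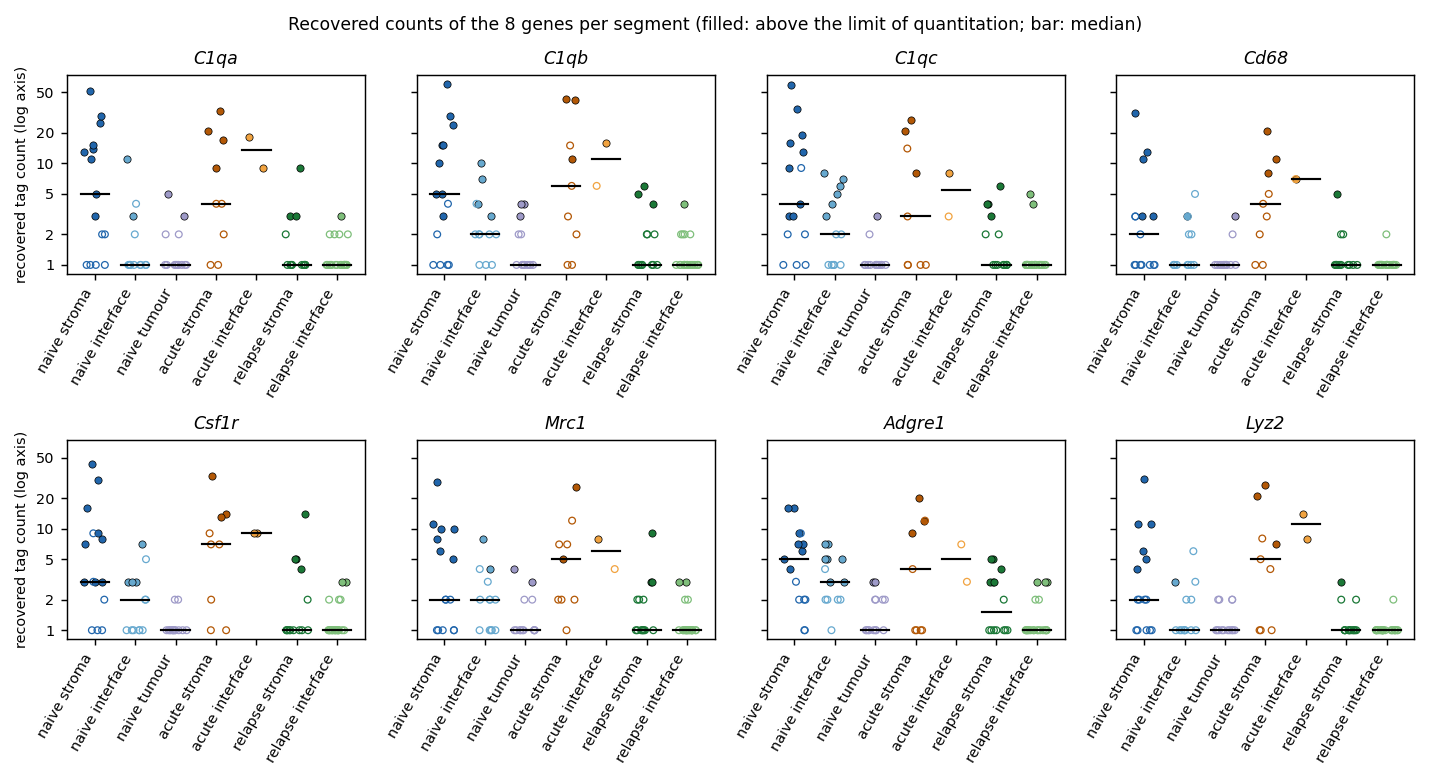
Recovered tag counts (vertical log axis) of the 8 genes in 89 segments, by slide and location class. Each point is a segment, filled points are above the segment's limit of quantitation and bars are medians. C1qa reaches 52 counts in naive stroma and no more than 9 on the relapse slide, and the classes overlap.

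C1qb had counts of 1 to 61 with a median of 5 in naive stroma, 1 to 10 with a median of 2 at the naive interface and 1 to 4 with a median of 1 within the naive tumour. In acute stroma it ranged from 1 to 43 with a median of 6. Its relapse counts were 1 to 6 in stroma and 1 to 4 at the interface, both with a median of 1. C1qc showed the same ordering of maxima, with counts of 1 to 59 and a median of 4 in naive stroma, 1 to 8 at the interface and 1 to 3 within the tumour. In acute stroma C1qc ranged from 1 to 27 with a median of 3. In relapse stroma it ranged from 1 to 6 and at the relapse interface from 1 to 5. As for C1qa, every class held segments at the floor except acute interface, with its 2 deep segments. The median limit of quantitation was 9.25 counts in acute stroma and 2 in naive stroma, so equal counts in these classes do not mean equal signal. In acute stroma 4 of 9 segments were above the limit for C1qa, and 3 of 9 for each of C1qb, C1qc, Cd68 and Lyz2.

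Csf1r, the receptor, had counts of 1 to 43 with a median of 3 in naive stroma, and 9 of 15 segments were above the limit. It ranged from 1 to 7 at the naive interface and from 1 to 2 within the naive tumour, where 0 of 14 segments were above the limit. In relapse stroma it ranged from 1 to 14 with a median of 1. Of the receptor's ligands, Csf1 was above the limit in 3 of 89 segments and Il34 in 5, so neither was tested.

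Cd68 was read at 1 to 31 counts in naive stroma with a median of 2, at 1 to 5 at the naive interface and at 1 to 3 within the naive tumour. In acute stroma it ranged from 1 to 21 with a median of 4, and at the relapse interface it did not exceed 2. Mrc1 ranged from 1 to 29 in naive stroma and from 1 to 8 at the naive interface, with a median of 2 in both. Adgre1 was above the limit in the most segments of the 8 genes, 29 of 89, with counts of 1 to 16 and a median of 5 in naive stroma and of 1 to 7 and a median of 3 at the naive interface. Lyz2 ranged from 1 to 31 in naive stroma with a median of 2, and from 1 to 27 in acute stroma with a median of 5. In the acute interface segments Lyz2 was at 8 and 14 counts. Lyz2 stayed at or below 3 counts on the relapse slide, where 1 of 36 segments was above the limit.

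Pooling the counts of a class by depth gave an order of the classes for each gene. For C1qa, C1qb, C1qc and Cd68 naive stroma was first, with pooled shares of 3.64, 3.68, 3.66 and 1.39. For Csf1r, Mrc1 and Adgre1 relapse stroma was first, at 2.91, 1.75 and 2.10, with naive stroma next at 2.82, 1.71 and 1.71. Lyz2 was highest in acute interface at 1.99 and next in naive stroma at 1.501. The last place went to naive interface for C1qa (0.513), to relapse interface for C1qb (0.689), Cd68 (0.0985) and Lyz2 (0.0985), and to naive tumour for C1qc (0.249), Csf1r (0.166), Mrc1 (0.581) and Adgre1 (0.664). Every class but acute interface held segments at a share of 0 for every gene, so the ranges of neighbouring classes overlapped by construction and the order is a description only. In relapse stroma 1 segment of tissue piece 3 held 14 counts of Csf1r and 9 each of C1qa and Mrc1, the highest of that class for each gene. It gave 13 of the class's 25 counts of Csf1r above the floor and 8 of 15 of Mrc1, and without it the pooled shares were 1.52 and 0.886, below naive stroma. Adgre1 without it was at 1.90, above naive stroma. Naive stroma was uneven as well, with 323 of its 483 summed C1q counts above the floor in the 3 segments of tissue piece 1. Its pooled C1q share was 14.8 in piece 1, and 8.24, 1.09 and 18.1 in pieces 3, 4 and 5. Cd68 was at 2.38 in piece 1, and at 0.375, 0.311 and 0.843 in pieces 3, 4 and 5, beside 1.19 in acute interface.

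The C1q genes were often seen without each other at this depth. All 3 were quantifiable together in 13 of 89 segments, 6 of them in naive stroma, and none was in 49 segments. All 8 genes were above it in 5 segments, 3 in naive stroma and 2 in acute stroma, and none was in 38. At the relapse interface 20 of 22 segments had none of the C1q genes above the limit. Correlations were taken across 89 segments on log2 of the share plus 1 with a straight line on log2 depth removed, and the segments share slides, pieces and depth. The 3 pairs among the C1q genes had Pearson's r of 0.59 to 0.65. The 15 pairs of a C1q gene with one of the other 5 had a median r of 0.48 and the 10 pairs among those 5 a median of 0.24. Within the naive slide the C1q pairs had r of 0.75 to 0.78 and the pairs with the other genes a median of 0.55 (42 segments). Within the relapse slide the C1q pairs had r of 0.25 to 0.47, with a median of 0.38, and the pairs with the other genes also a median of 0.38, up to 0.54 (36 segments), so the order of the pairs was not the same on that slide.

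The tested targets outside the 8 genes whose pattern was most like the summed C1q share over 89 segments were Fth1 (r = 0.83), Ctss (0.79), Apoe (0.76), Ctsz (0.72), B2m (0.70), Psap (0.68), Ctsd (0.68) and Ctsb (0.68). Fth1 is ferritin heavy chain, Apoe is apolipoprotein E, B2m is the light chain of MHC class I, Psap is the precursor of lysosomal saposins, and Ctss, Ctsz, Ctsd and Ctsb are cathepsins, lysosomal proteases. Over all 5079 other tested targets the median r was -0.01 and the 99th percentile was 0.50. On the acute slide, with 11 segments, Fth1 ranked 623 and Ctss 439, while on the relapse slide Fth1 ranked 1 and Ctss 2.

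The first comparison asked whether these genes differed between the interface and the stroma before treatment. Summed C1q shares ranged from 0 to 40.3 with a median of 9.56 in 15 stroma segments and from 0 to 42.04 with a median of 1.66 in 13 interface segments. A single interface segment, of tissue piece 1, reached 42.04, and the other interface segments were at or below 2.52. C1qa was lower at the interface by -1.57 on the log2(value + 1) scale (SE 0.29, adjusted p = 2.38e-05, limma with Benjamini-Hochberg adjustment), with a normalised value of 5.32 ± 10.8 (SD, n = 13) against 15.1 ± 14.6 (SD, n = 15). By the same fit 7 of 8 genes were lower, against 10.5% of all 5087 tested targets called lower and 0.531% called higher. The differences were -1.26 for Csf1r (SE 0.25, adjusted p = 0.000129), -1.19 for C1qc (SE 0.29, adjusted p = 0.00181), -1.10 for C1qb (SE 0.29, adjusted p = 0.00521) and -0.84 for Lyz2 (SE 0.20, adjusted p = 0.00161). Mrc1 was at -0.72 (SE 0.25, adjusted p = 0.0464) and Cd68 at -0.70 (SE 0.22, adjusted p = 0.0211). Adgre1 was at -0.52 (SE 0.24, adjusted p = 0.163) and did not pass. Cd68 and Lyz2 were above the limit of quantitation in 7 each of the 74 segments outside naive stroma, under the 10% of the filter, so they entered the test through the class where they were high and their calls are no support for the count. With no filter on low values 6 of 8 genes were called, Mrc1 no longer among them (adjusted p = 0.0742, limma), beside 3.35% of 19962 targets called lower. The median over the 8 genes was -0.97 and over all tested targets -0.15. Segments share slides and tissue pieces, and may share animals, so these p-values and all those below over segments are too small. In regions of tissue, fewer cells of a type and less RNA per cell cannot be told apart.

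These calls did not hold under another scaling. With counts per 10000 in place of the deposited factor 0 of 8 genes were called (limma; 42 of 5087 targets were), with C1qa at -1.22 (SE 0.38, adjusted p = 0.105) and C1qc at -1.24 (SE 0.36, adjusted p = 0.0754). A gene at the floor takes the value of 1 divided by the factor. The median of this floor value was 1.87 in naive stroma and naive interface and 3.74 in naive tumour and both relapse classes. The lowest factor, with a floor value of 3.74, was that of 7 of 15 naive stroma and 2 of 13 naive interface segments. A gene at the floor can thus read lower at the interface. The median normalised value of C1qa at the naive interface was 1.87, the median floor value, so the size of -1.57 depends on the floor.

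Nor did they hold with a term for each piece of tissue. The annotation names no piece, so pieces were taken from the positions of the segments, which gave 6 on the naive slide. In piece 1 the pooled C1q share was 14.8 in 3 stroma segments (95% exact interval 13.2 to 16.5), 42.04 in 1 interface segment (27.5 to 61.5) and 23.97 in 3 tumour segments (11.5 to 44.05). In piece 4 it was 1.09 in 2 stroma segments (0.438 to 2.24), 1.69 in 8 interface segments (1.15 to 2.38) and 1.12 in 7 tumour segments (0.483 to 2.21). Thus the summed C1q value was the higher at the interface in both pieces that held stroma and interface, with overlapping intervals in piece 4. Single genes did not all follow: C1qa in piece 4 was lower at the interface (0.316 against 0.622), as were Csf1r (3.23 against 3.94) and Lyz2 (0 against 2.06) in piece 1. Piece 3 held only stroma, at 8.24 in 6 segments. In piece 5 the value was 18.1 in 4 stroma segments and 0 in 1 tumour segment, whose depth allows up to 18.3. Piece 2 had 1.29 in 4 interface segments and 0 in 2 tumour segments, where a count of 0 allows up to 3.58. The tumour segment of piece 6 had 0.863 (0.178 to 2.52).

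**Figure D2:**
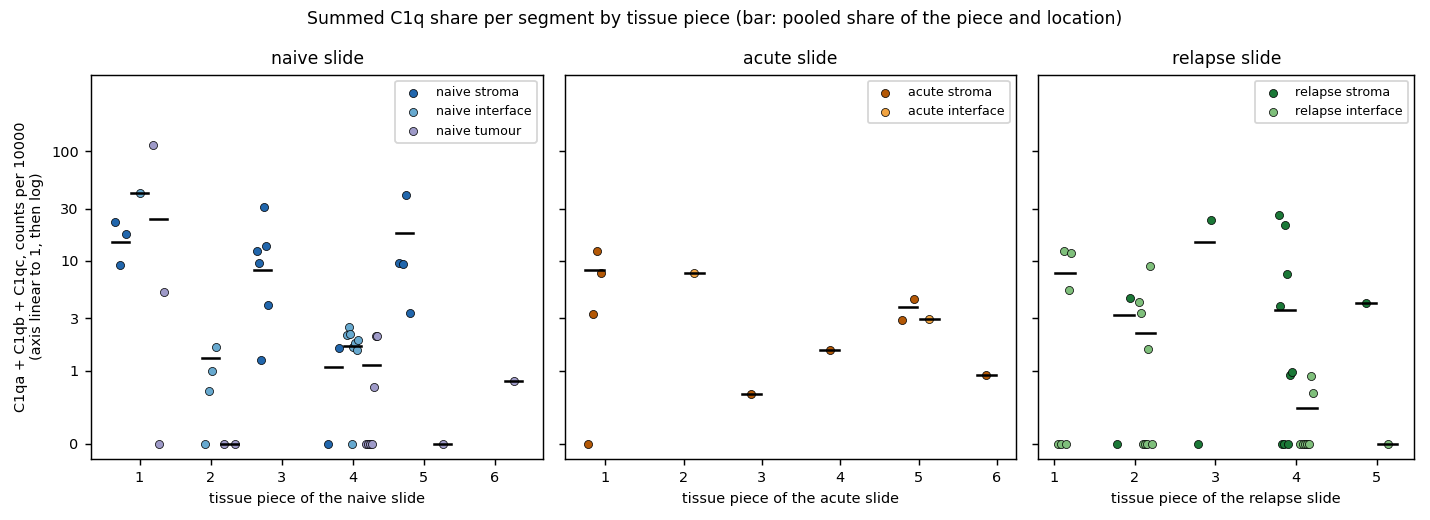
Summed share of C1qa, C1qb and C1qc per segment (counts per 10000 counts above the floor, axis linear to 1 and logarithmic above) by tissue piece of each slide. Points are segments coloured by class and bars are the pooled share of a piece and location. On the naive slide the pooled share is 14.8 to 42.04 at every location of piece 1 and 1.09 to 1.69 at every location of piece 4.

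With tissue piece as a fixed term, 0 of 8 genes passed in interface minus stroma (limma; 0 of 5087 targets did, and 565 had an unadjusted p below 0.05). C1qa was at -0.81 (SE 0.37, adjusted p = 0.384), Csf1r at -0.74 (SE 0.34, adjusted p = 0.389) and C1qc at -0.05 (SE 0.36, adjusted p = 0.982). Lyz2 was the least moved of the genes called, at -0.80 (SE 0.28, adjusted p = 0.259). With tissue piece as a random block, which also uses differences between pieces, limma called 5 of 8 genes lower, beside 6.47% of all tested targets. These were C1qa (-1.42, adjusted p = 0.000451), Csf1r (-1.15, adjusted p = 0.00193), C1qc (-0.99, adjusted p = 0.0224), C1qb (-0.96, adjusted p = 0.0326) and Lyz2 (-0.81, adjusted p = 0.00723). Lyz2 entered the test through naive stroma, as said above, so its call is no support for this count. Of the naive pieces only 1 and 4 held both stroma and interface, so the fit with the fixed term compares these locations directly in them alone. Piece 2, with interface and tumour, and piece 5, with stroma and tumour, entered it indirectly through the tumour class. Without piece 4, and with no term for piece, C1qa was the only member called (-1.49, adjusted p = 0.0495, limma).

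The second comparison set segments within the tumour against the stroma before treatment. Summed C1q shares within the tumour ranged from 0 to 113 with a median of 0, and overlapped the whole range of the stroma. The value of 113 was 9 counts in the shallowest naive segment, with a depth of 796 and 6 nuclei. Limma, with p-values over segments that are too small as above, called 5 of 8 genes lower within the tumour, against 3.44% of all tested targets, with 0.216% called higher. C1qc differed by -1.42 (SE 0.28, adjusted p = 0.000121), Csf1r by -1.27 (SE 0.25, adjusted p = 0.000105), C1qa by -1.20 (SE 0.28, adjusted p = 0.00226), C1qb by -1.09 (SE 0.29, adjusted p = 0.00924) and Adgre1 by -0.82 (SE 0.24, adjusted p = 0.0254). Within the tumour C1qc was quantifiable in 1 of 14 segments and Csf1r in 0, with mean normalised values of 3.83 and 3.38 beside a median floor value of 3.74, so the size of these differences is set by the floor and is no measure of a level there. The normalised value of C1qc was 3.83 ± 2.63 (SD, n = 14) within the tumour and 15.5 ± 13.8 (SD, n = 15) in the stroma. Mrc1 (-0.59), Lyz2 (-0.51) and Cd68 (-0.43) did not pass, with adjusted p of 0.159 to 0.334 by limma. The median over the 8 genes was -0.96 and over all tested targets -0.01.

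With counts per 10000, 3 of these genes were called (limma): C1qc at -1.49 (adjusted p = 0.00385), Csf1r at -1.38 (adjusted p = 0.0029) and C1qa at -1.21 (adjusted p = 0.0461). With tissue piece as a fixed term 0 of 8 were called (limma; 37 of 5087 targets were), with Csf1r at -0.92 (SE 0.31, adjusted p = 0.138) and C1qc at -0.61 (SE 0.32, adjusted p = 0.441). A random block for tissue piece left 4 of 8 called, beside 2.65% of all tested targets lower, with Adgre1 lost (adjusted p = 0.0663, limma). With no filter on low values 4 of 8 were called, again without Adgre1 (adjusted p = 0.0782, limma), beside 0.616% of 19962 targets lower. Leaving out piece 1 left 3 calls and leaving out piece 4 left 2.

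**Figure D3:**
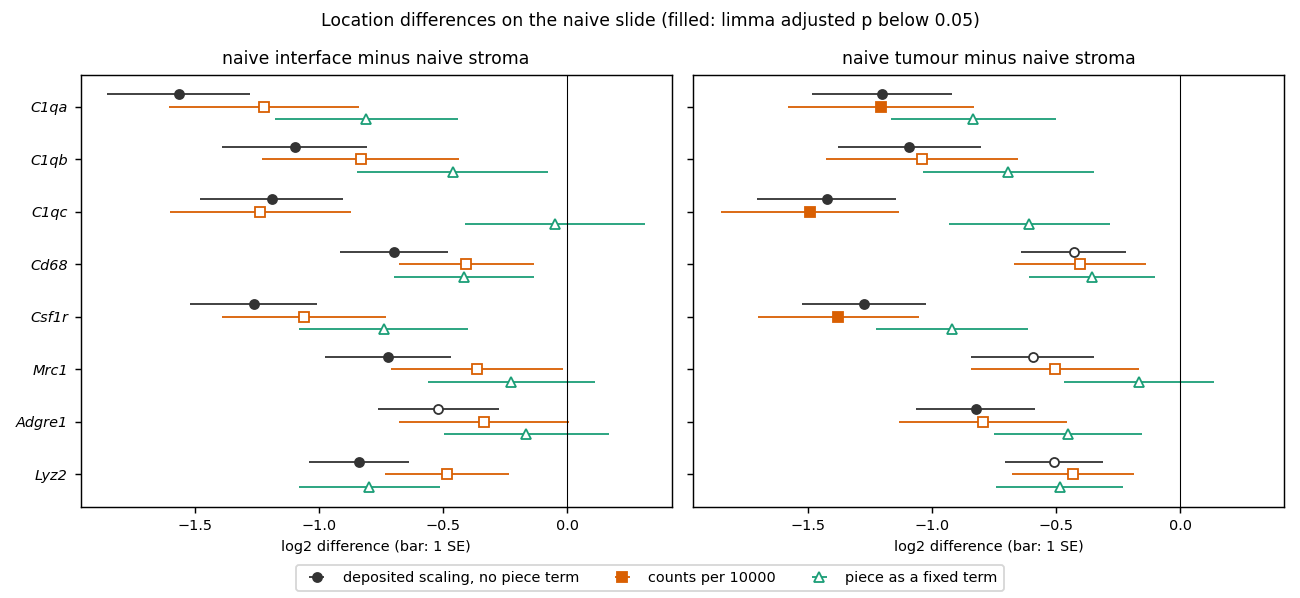
Log2 differences of the 8 genes on the naive slide, interface minus stroma (left) and tumour minus stroma (right), with 1 SE, under the deposited scaling, under counts per 10000 and with tissue piece as a fixed term. Filled symbols have a limma adjusted p below 0.05: 7 and 5 genes under the deposited scaling, 0 and 3 under counts per 10000, and 0 and 0 with tissue piece.

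Besides the 8 genes, others of the same cells and pathway were read from lists of 40 macrophage and 24 complement genes. Of the macrophage list 24 were tested, and limma called 20 lower at the naive interface than in the stroma and 0 higher, beside 10.5% of all tested targets lower. Among these were Apoe (-3.98, adjusted p = 3.19e-10), Ctss (-1.95, adjusted p = 1.3e-05), the lysosomal protease Lgmn (-1.77, adjusted p = 3.43e-05) and the inhibitory Fc receptor Fcgr2b (-1.26, adjusted p = 0.000244). Within the tumour 9 of 24 were lower and 0 higher, beside 3.44% of all tested targets lower, again with Apoe (-3.67, adjusted p = 9.49e-10). Of the complement list 9 were tested, and 7 were lower at the interface and 5 within the tumour. These included Cfd, the protease of the alternative pathway (-2.36 at the interface, adjusted p = 2.47e-08), C4b (-1.90, adjusted p = 3.72e-07), C3, on which the pathways converge (-1.41, adjusted p = 3.5e-05), and Serping1, the inhibitor of C1r and C1s (-1.23, adjusted p = 1.15e-06). With counts per 10000, limma called 3 of 24 macrophage and 3 of 9 complement genes lower at the interface (0.806% of all tested targets) and 7 of 24 and 5 of 9 within the tumour (2.97%). With tissue piece as a random block it called 13 of 24 and 7 of 9 lower at the interface (6.47%), and 7 of 24 and 4 of 9 within the tumour (2.65%). With tissue piece as a fixed term it called 0 of 24 and 0 of 9 at the interface (0%), and 1 of 24 and 1 of 9 within the tumour (0.59%). C1s1 was the only tested gene among C1ra, C1rb, C1s1 and C1s2, the genes of the proteases that C1q carries, and was lower at the interface (-0.68, adjusted p = 0.00486, limma).

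Among markers of other cells, those of fibroblasts moved with these differences. All 9 fibroblast markers were tested, and limma called all 9 lower at the naive interface and within the naive tumour than in the stroma. Of all tested targets 10.5% and 3.44% were called lower in these comparisons. The summed share of the fibroblast markers ranged from 16.2 to 365 in naive stroma, 7.93 to 351 at the interface and 0 to 41.3 within the tumour. By piece, the pooled fibroblast share was 212 in the stroma and 351 in the interface segment of piece 1, and 17.6 and 15.3 in piece 4. Under a fixed term for tissue piece, limma called 0 of 9 lower at the interface and 7 of 9 within the tumour. Of all tested targets 0% and 0.59% were called lower in this fit. The 10 keratinocyte markers had summed shares of 4.39 to 52.96 in naive stroma, 3.82 to 59.8 at the interface and 0 to 226 within the tumour. Of the 9 tested, limma called 1 lower at the interface and 0 within the tumour. Dendritic and endothelial markers each had 1 of 2 tested called lower at the interface and 0 within the tumour. T cell, B and plasma cell and monocyte markers had 0 calls in both. Neither of the tested neutrophil markers passed in either comparison, and the 15 listed had pooled shares of 6.82, 6.73 and 8.05 in naive stroma, interface and tumour. The part of these markers in the difference of the macrophage genes was not tested.

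**Figure D4:**
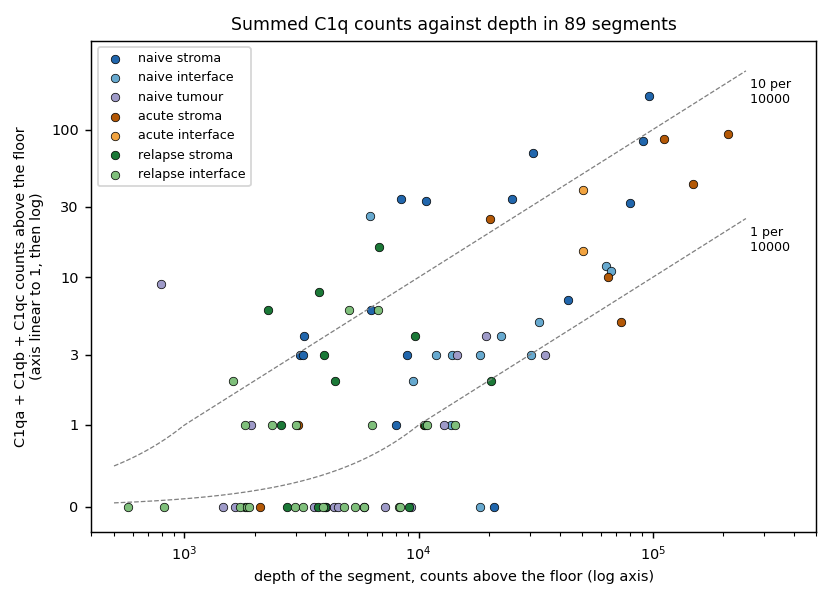
Summed counts above the floor of C1qa, C1qb and C1qc (axis linear to 1, then logarithmic) against the depth of the segment (log axis) in 89 segments, coloured by class. Dashed lines mark shares of 1 and 10 per 10000. Segments of like depth differ in C1q counts, as at depths of 6185 and 6336, with 26 counts and 1.

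Tumour minus interface before treatment gave 0 of 8 calls (limma; 0 of 8 at an unadjusted p below 0.05), against 0.059% of all tested targets in either direction (0.0393% higher). The differences ran from -0.30 (Adgre1) to 0.37 (C1qa), with 95% intervals that reached from -0.81 to 0.94, so the intervals held differences of up to 0.94 on the log2 scale. With counts per 10000 the median of all tested targets was -0.18 against 0.13 under the deposited scaling, and C1qa was at 0.02.

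On the relapse slide the interface was set against the stroma. Summed C1q shares ranged from 0 to 26.3 with a median of 2.43 in 14 stroma segments and from 0 to 12.5 with a median of 0 in 22 interface segments, and the groups overlapped. Limma called 0 of 8 genes (0 of 8 at an unadjusted p below 0.05), against 0% of all tested targets. All 8 differences were below 0, from -0.38 (Adgre1, 95% interval -0.82 to 0.05) to -0.08 (Lyz2, 95% interval -0.44 to 0.27). The median over the 8 genes was -0.29 and over all tested targets 0.04. In the 3 relapse pieces that held both locations the pooled C1q share was the lower at the interface: 2.22 against 3.23 in piece 2, 0.487 against 3.55 in piece 4, and 0 against 4.13 in piece 5. These rest on 9, 2 and 0 counts at the interface and 2, 21 and 4 in the stroma. The 95% exact intervals overlapped in piece 2 (1.02 to 4.22 against 0.391 to 11.7) and piece 5 (0 to 4.41 against 1.13 to 10.6). They did not overlap in piece 4 (0.0589 to 1.76 against 2.20 to 5.42).

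Whether the location difference itself differed between the slides was tested by relapse interface minus stroma, less naive interface minus stroma. C1qa was the only member called, at 1.399 (SE 0.39, adjusted p = 0.02, limma), against 4.07% of all tested targets called higher, 0.118% lower and 4.19% in either direction. The other 7 genes lay between 0.14 (Adgre1) and 0.90 (Csf1r, adjusted p = 0.117, limma), and the median of all tested targets was 0.19. For C1qa the value was 0.84 (adjusted p = 0.679) with counts per 10000 and 0.69 (SE 0.46, adjusted p = 0.724) with tissue piece as a fixed term, both by limma. With the piece term C1qc (-0.41) and Adgre1 (-0.16) were below 0. Of the macrophage list 6 of 24 tested genes were called higher in this comparison, and of the fibroblast markers 7 of 9.

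Between stages the stroma was compared first, again over segments that may share animals, so that the p-values are too small. In acute stroma 9 segments had summed C1q shares of 0 to 12.4 with a median of 2.88, within the range of naive stroma. Acute minus naive stroma gave 0 of 8 calls by limma, while 3 of 8 had an unadjusted p below 0.05, against 0.0197% of all tested targets called. The largest differences were -1.12 for C1qc (SE 0.32, adjusted p = 0.128) and -0.87 for Adgre1 (SE 0.27, adjusted p = 0.17). Both passed when acute piece 1 was left out (-1.67 and -1.32, adjusted p = 0.00854 and 0.0112, limma) and when naive piece 4 was left out (-1.48 and -1.04, adjusted p = 0.0171 and 0.0467). Of all tested targets 3.18% and 0.668% were called in these fits. The acute stroma was spread over both plates, with pooled shares of C1qa of 1.22 in 4 segments of plate G and 1.30 in 5 of plate H, and of Csf1r of 2.22 and 1.05. Median depth was 11646 and 111276 in these plates.

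Relapse minus naive stroma also gave 0 of 8 calls by limma, with 5 of 8 at an unadjusted p below 0.05, against 1.4% of all tested targets called and 1.26% called lower. With counts per 10000 the targets called were 23 higher and 83 lower, in place of 7 and 64. C1qa had the largest difference at -0.94 (SE 0.28, adjusted p = 0.0678), followed by C1qc at -0.85 (SE 0.28, adjusted p = 0.124). C1qa passed without naive piece 3 (-1.19, adjusted p = 0.04), naive piece 4 (-1.17, adjusted p = 0.0156) or relapse piece 3 (-1.13, adjusted p = 0.0102), and with log2 depth as a covariate (-1.01, adjusted p = 0.05), all by limma. C1qc passed without naive piece 4 (-1.21, adjusted p = 0.00595). These fits called 0.727% (naive piece 3), 2.01% (naive piece 4), 1.85% (relapse piece 3) and 1.61% (depth covariate) of all tested targets. In the same comparison limma called 7 of 9 fibroblast markers lower (median -1.89) and 4 of 9 tested keratinocyte markers higher, and their part in the C1q difference was not tested. Plate G held every naive segment and plate H every relapse segment, so plate and stage cannot be told apart here.

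Relapse minus naive interface gave 0 of 8 calls (limma; 0 of 8 at an unadjusted p below 0.05), against 9.77% of all tested targets, 9.36% higher and 0.413% lower. The differences ran from -0.23 (Adgre1) to 0.46 (C1qa, SE 0.26, adjusted p = 0.227), while the median of all tested targets was 0.22. Their direction depended on the scaling: with counts per 10000 all 8 lay below 0, from -0.70 (Adgre1) to -0.11 (C1qa), the median of all targets was -0.25, and the targets called were 26 higher and 154 lower in place of 476 and 21. Without naive piece 1, whose interface segment had the C1q share of 42.04, limma called C1qa (0.75, adjusted p = 0.0191) and Cd68 (0.52, adjusted p = 0.0321) higher, beside 16.1% of all tested targets higher in that fit. In the same comparison 7 of 9 tested keratinocyte markers were called higher. Relapse minus acute stroma gave 0 of 8 calls (limma; 0 of 8 at an unadjusted p below 0.05), against 1.53% of all tested targets (0.885% higher), with differences from -0.22 (C1qb) to 0.50 (Adgre1, adjusted p = 0.326). With counts per 10000 the targets called were 30 higher and 38 lower, in place of 45 and 33. Comparisons that share a class, such as those against naive stroma, share its segments and are not independent of each other.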

How the data were processed

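The authors deposited normalised signal per target and segment, a matrix with a table of annotation. Per the file headers, an upper-quartile factor was given for each segment. It is a ratio, and the deposited signal times this factor was whole for 99.986% of values within a tolerance of 1e-06. Per the file headers, the authors also give a geometric mean and SD of the negative probes, used for the limit of quantitation. Seurat and the build mm10 are named in the submitters' processing notes; aligner and counter are not given in the sources used here.

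Targets above the limit of quantitation in at least 10% of segments were tested. Values were log2(value + 1), fitted with limma 3.58.1 in R 4.3.3 (lmFit and eBayes with trend, 7 class means over 89 segments, two-sided, Benjamini-Hochberg at 0.05 over all tested targets). The fit was also run on simulated counts, drawn independently for each segment with no tie within tissue pieces. That run is no support for the p-values over segments given here. Tissue pieces (17) were joined from positions by single linkage at a gap of 5000 position units. Figures used matplotlib 3.10.9.

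The genes and lists were chosen with earlier results of these data known. The genes named were the 8 members, list genes past the threshold (examples of them), and the 8 targets of highest correlation. Alternatives varied the filter, pseudocount (0.5), scaling, depth covariate, a depth minimum of 2000, plate and tissue piece. Promoters and gene positions came from RefSeq tables of GRCm38.p6, matched by symbol. Nothing ties segments to animals, so segments were the unit.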

Additional observations from a re-analysis of the deposited data

Results flagged for a closer look

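The difference of C1qa between interface and stroma was not the same on the relapse and naive slides by a test of the difference itself: 1.399 on the log2(value + 1) scale (SE 0.39, adjusted p = 0.02, limma), with C1qa at -1.57 on the naive slide and -0.17 on the relapse slide. On the relapse slide C1qa was above the limit of quantitation in 3 of 14 stroma and 1 of 22 interface segments. Its median normalised value there was 3.74 in both locations, which is the median floor value. The -0.17 is thus no measure of a location difference, and the size of 1.399 depends on the floor. The difference of 1.399 did not pass with counts per 10000 (0.84), with tissue piece as a random block (1.22) or a fixed term (0.69), or without naive piece 2, 4 or 5 or relapse piece 2 or 4. Fibroblast markers moved with it, with 7 of 9 called higher in the same test, beside 4.07% of all tested targets. The part of the fibroblast markers in it was not tested.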

How the results depend on the processing

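Of the 8 genes, the number called in naive interface minus stroma was 7, and 0 with counts per 10000, with tissue piece as a fixed term, and with both together; it ranged from 1 to 7 when a piece was left out, with 1 (C1qa) without naive piece 4, where 1.14% of all tested targets were called. In naive tumour minus stroma 5 became 3 with counts per 10000, 0 with tissue piece as a fixed term and 0 with both, and ranged from 2 to 5, with 3 without naive piece 1 (2.02% of targets) and 2 without naive piece 4 (1.55%). Acute minus naive stroma ranged from 0 to 2, with 2 without acute piece 1 (3.18% of targets) or naive piece 4 (0.668%), against 0.0197% with all pieces. Relapse minus naive stroma gave 1 with log2 depth as a covariate and ranged from 0 to 2, with 1 without naive piece 3 (0.727% of targets) or relapse piece 3 (1.85%) and 2 without naive piece 4 (2.01%). Relapse minus naive interface ranged from 0 to 2, with 2 without naive piece 1 (16.9% of targets), both of genes at or near the floor. The difference of the location differences had 1 call, and 0 with counts per 10000, with tissue piece as a random block, as a fixed term, and as a fixed term with counts per 10000. It ranged from 0 to 2, with 2 (C1qa and Csf1r) without relapse piece 3 (5.17% of targets) and 0 when any of naive pieces 2, 4 and 5 and relapse pieces 2 and 4 was left out. With the fixed term and counts per 10000 together the sign turned for C1qb (0.0501), C1qc (0.29), Cd68 (0.0116) and Mrc1 (0.14) in naive interface minus stroma, and for C1qa (-0.12) in the difference of location differences. The cause of these changes was not tested. Tissue pieces were taken from positions after the data were seen, in place of pieces named by the annotation. A planned count model was not run, because the recovered values were not accepted as whole reads. Depth limits all 8 genes: 69.1% of target values were at the floor.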
